A study of Mus musculus with 15 samples.

Results

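Matrix metalloproteinases (MMPs), ADAMTS proteases and tissue inhibitors of metalloproteinases (TIMPs) were followed in mouse hearts. The 10 genes are a list of members of these families, looked up by symbol in the raw gene counts, where all 10 of 10 were found among 17447 genes. They are the MMPs Mmp2 and Mmp14, the ADAMTS proteases Adamts1, Adamts2, Adamts5 and Adamts9, and the inhibitors Timp1, Timp2, Timp3 and Timp4.

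The hearts came from a study that asked whether renalase, a secreted flavoprotein encoded by Rnls, protects the heart in chronic kidney disease (CKD), which was induced by removing most of the kidney mass in a stepwise 5/6 nephrectomy. All mice were males of the C57BL/6J strain, 6 to 8 weeks old when the study began, and hearts were taken 18 weeks after surgery. Polyadenylated RNA of 15 hearts was sequenced as stranded libraries, 3 separate mice in each of 5 groups. The level of Rnls itself was not analysed here. WTSHAM mice were wild type, had the operation without removal of kidney tissue, and no vector is named in their label. WTCKD mice were wild type with CKD and received a control vector. WTCKD + RNLS mice were wild type with CKD and received AAV9-cTnT-RNLS, an adeno-associated virus that expresses renalase from the cardiac troponin T promoter and so in cardiomyocytes. KOCKD mice were Rnls knockouts, made with TALE nucleases, with CKD and the control vector. KOCKD + RNLS mice were the same knockouts with CKD and AAV9-cTnT-RNLS. A sham-operated knockout group was not among the 5 groups, so kidney disease and knockout were not crossed in full.

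MMPs are zinc proteases that cut collagens, basement membrane and other matrix proteins, and the membrane-bound Mmp14 product also activates the secreted Mmp2 product. ADAMTS proteases are secreted zinc proteases with thrombospondin repeats: the products of Adamts1, Adamts5 and Adamts9 cut proteoglycans such as versican, and that of Adamts2 trims the amino-terminal propeptide from fibrillar procollagens. TIMPs block the active site of these enzymes, and in the heart the balance of proteases and TIMPs is known for its part in the turnover of matrix during remodelling.

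The libraries held 10480788 to 13424078 counted reads each, with a median of 12011453. Counts of the 10 members made up 0.062% to 0.0966% of a library. All 10 passed the filter on low counts that 13021 genes passed, so none was lost before testing. Single counts ranged from 8 to 105 reads for Timp1, the member with the thinnest counts, and from 2587 to 6637 reads for Timp3, the member with the deepest. Levels of a gene are given below as counts scaled to library size with TMM factors (CPM), and the log2 fold changes come from the counts.

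The label of the tissue was checked against markers. The summed level of 7 cardiomyocyte genes, led by Myh6, was 89588 to 112964 CPM in the 15 libraries. Markers of lung summed to at most 0.667 CPM, and those of skeletal muscle to at most 0.551 CPM. Atrial markers (5 genes, led by Nppa) summed to over 2000 CPM in 2 libraries, with 2330 CPM in WTCKD replicate 2 and 2647 CPM in KOCKD replicate 3. WTCKD replicate 1 had 1254 CPM and WTSHAM replicate 3 had 1146 CPM, and the other libraries had 84.7 to 474 CPM. For members and other genes called in the renalase comparisons, it is said where leaving out the 2 libraries over 2000 CPM ended a call. That check keeps WTCKD replicate 1, so it does not remove all atrial signal from the wild-type comparison. Libraries were also compared in pairs by a chi-square per degree of freedom. WTSHAM replicate 1 had 19.7 and 20.4 to the other WTSHAM libraries, which had 9.05 between them. WTCKD + RNLS replicate 2 had 21.5 and 19.6 to the others of its group, which had 9.0 between them.

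Per unit of gene length, the inhibitors Timp3 and Timp2 had the highest levels of the 10 genes. The mean over the 15 libraries of the deposited FPKM, which is scaled to gene length and library size, was 78.6 for Timp3 and 37.8 for Timp2, and Timp3 was above Timp2 in 15 of 15 libraries. Mmp2 followed at 22.7 FPKM, below Timp2 in 15 of 15 libraries. Timp4 had 16.2 FPKM and was below Mmp2 in 10 of 15 libraries, so these neighbours were not separated in every heart. Adamts1 had 11.8 FPKM and Mmp14 had 7.09 FPKM, with Adamts1 above Mmp14 in 12 of 15 libraries. The lowest 4 lay close together in FPKM: Adamts5 at 3.84, Timp1 at 3.65, Adamts2 at 3.46 and Adamts9 at 3.18. Timp1 was above Adamts2 in 8 of 15 libraries, and Adamts2 was above Adamts9 in 8 of 15, so the order of these 3 was not fixed.

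The members differed in how far they varied. Between the highest and the lowest library, the CPM level differed 11.9-fold for Timp1, 3.72-fold for Mmp14, 3.34-fold for Adamts2 and 3.0-fold for Adamts1. For the other 6 members the span was 1.91-fold to 2.44-fold. In a test for any difference among the 5 groups (edgeR's quasi-likelihood test, p adjusted after Benjamini and Hochberg over all 13021 genes), 6 of 10 members passed an adjusted p under 0.05, where 22.2% of all tested genes passed. The adjusted p was 1.0e-04 for Mmp14, 3.21e-04 for Adamts2, 8.08e-04 for Timp3, 0.00243 for Adamts9, 0.00541 for Timp1 and 0.0417 for Adamts1 in edgeR's quasi-likelihood test. In the same edgeR test the adjusted p was 0.0504 for Mmp2, 0.086 for Adamts5, 0.165 for Timp4 and 0.212 for Timp2. The count of members that passed ran from 5 to 8 when 1 library was left out. The call of Adamts1 was lost without WTCKD replicate 1 or 2, WTCKD + RNLS replicate 1 or 3, KOCKD replicate 1 or 2, or any 1 KOCKD + RNLS library. It was also lost with gene length offsets and with the replicate block, and the other 5 passed in every alternative.

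**Figure D1:**
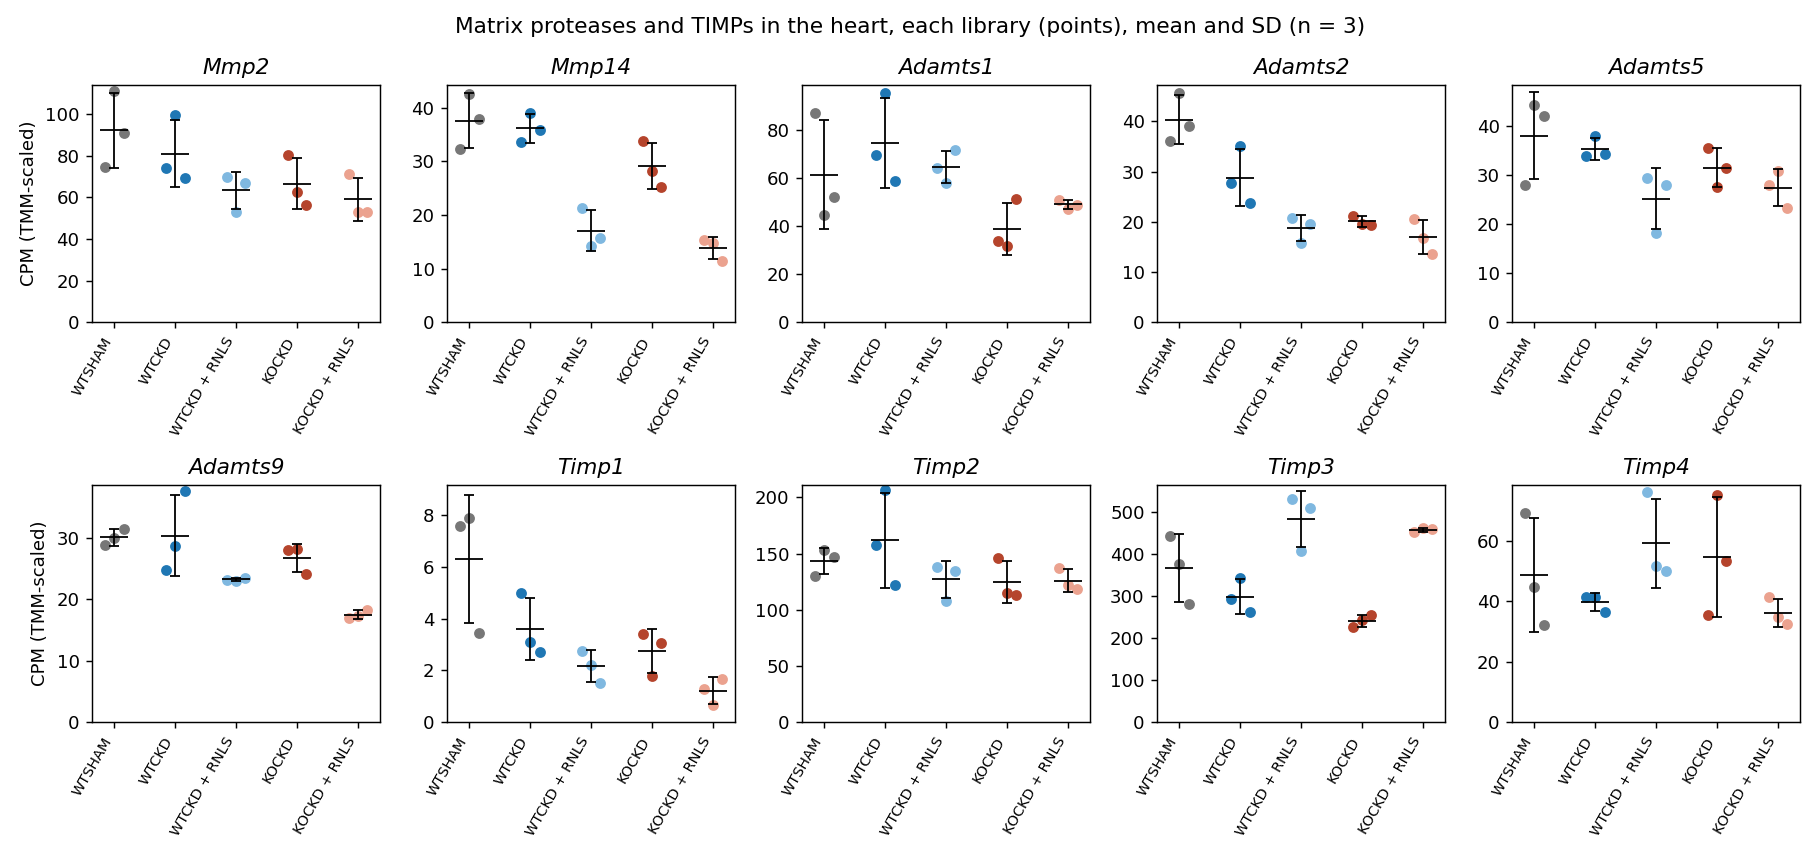
CPM of each of the 10 members (vertical axis) in the 5 groups (horizontal axis), with a point for each library and bars for the mean and SD (n = 3). The 6 libraries of the groups with the renalase vector are below the other 9 for Mmp14, and above both vector-treated CKD groups for Timp3.

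Mmp14, the membrane-type protease, was lower in every heart with the renalase vector than in any heart without it. Its level was 33.6, 39.0 and 35.9 CPM in WTCKD (36.2 ± 2.70, mean ± SD, n = 3) and 21.4, 14.2 and 15.7 CPM in WTCKD + RNLS (17.1 ± 3.77, n = 3). In the knockout it was 33.8, 28.2 and 25.3 CPM in KOCKD (29.1 ± 4.35, n = 3) and 15.3, 14.7 and 11.4 CPM in KOCKD + RNLS (13.8 ± 2.08, n = 3). All 6 hearts that received the renalase vector were below all 6 CKD hearts that received the control vector. The WTSHAM hearts, at 32.3, 42.5 and 37.9 CPM (37.6 ± 5.11, n = 3), overlapped those of WTCKD.

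Mmp2, the secreted gelatinase, was spread widely within groups. It stood at 74.7, 111 and 91.0 CPM in WTSHAM and at 74.1, 99.6 and 69.3 CPM in WTCKD. It stood at 69.7, 53.1 and 67.0 CPM in WTCKD + RNLS, at 80.3, 62.8 and 56.5 CPM in KOCKD and at 71.1, 53.1 and 52.7 CPM in KOCKD + RNLS. The WTSHAM hearts lay above those of both renalase groups, while the CKD hearts with the control vector overlapped their renalase partners.

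Adamts2, the procollagen N-propeptidase, was highest in the sham hearts. Its level was 36.1, 45.6 and 39.1 CPM in WTSHAM (40.3 ± 4.88, n = 3), 27.6, 35.1 and 23.7 CPM in WTCKD (28.8 ± 5.76, n = 3) and 20.9, 15.9 and 19.5 CPM in WTCKD + RNLS (18.7 ± 2.58, n = 3). It was 21.3, 19.7 and 19.3 CPM in KOCKD (20.1 ± 1.03, n = 3) and 20.5, 16.8 and 13.7 CPM in KOCKD + RNLS (17.0 ± 3.40, n = 3). These 3 wild-type groups did not overlap one another, and the knockout groups overlapped each other.

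Adamts9, a versican-cleaving protease, was lowest in the knockout hearts with renalase. It stood at 28.8, 29.9 and 31.5 CPM in WTSHAM, at 24.7, 28.7 and 37.6 CPM in WTCKD and at 23.1, 23.0 and 23.5 CPM in WTCKD + RNLS (23.2 ± 0.256, n = 3). It stood at 28.0, 28.1 and 24.1 CPM in KOCKD (26.7 ± 2.30, n = 3) and at 17.0, 17.2 and 18.3 CPM in KOCKD + RNLS (17.5 ± 0.688, n = 3). The 3 KOCKD + RNLS hearts were below the other 12, and the WTCKD + RNLS hearts were just below all WTCKD hearts.

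Adamts1, another versican-cleaving protease, differed most between the CKD genotypes. Its level was 69.7, 95.4 and 58.9 CPM in WTCKD (74.7 ± 18.7, n = 3) and 33.7, 31.8 and 51.2 CPM in KOCKD (38.9 ± 10.7, n = 3). In WTSHAM it was 87.1, 44.5 and 52.3 CPM, in WTCKD + RNLS 64.1, 58.0 and 71.6 CPM, and in KOCKD + RNLS 51.0, 47.2 and 48.9 CPM. WTCKD and KOCKD did not overlap, while WTSHAM overlapped every other group. Adamts5, the remaining ADAMTS member and an aggrecan- and versican-cleaving protease, ranged from 18.1 to 44.2 CPM. Its group means were 38.0 CPM in WTSHAM, 35.3 in WTCKD, 25.2 in WTCKD + RNLS, 31.4 in KOCKD and 27.4 in KOCKD + RNLS.

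Among the inhibitors, Timp3, whose product binds to the matrix and inhibits ADAMTS proteases as well as MMPs, was higher with the renalase vector in both genotypes. Its level was 291, 343 and 260 CPM in WTCKD (298 ± 41.7, n = 3) and 531, 407 and 508 CPM in WTCKD + RNLS (482 ± 65.8, n = 3). It was 226, 242 and 254 CPM in KOCKD (241 ± 14.1, n = 3) and 451, 462 and 458 CPM in KOCKD + RNLS (457 ± 5.14, n = 3). All 6 hearts with the renalase vector were above all 6 CKD hearts with the control vector. The WTSHAM hearts, at 441, 374 and 281 CPM (366 ± 80.4, n = 3), overlapped those of WTCKD and of WTCKD + RNLS.

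Timp1, the inducible inhibitor, was the least abundant in CPM. It stood at 7.58, 7.89 and 3.46 CPM in WTSHAM (6.31 ± 2.48, n = 3), at 4.99, 3.12 and 2.72 CPM in WTCKD (3.61 ± 1.21, n = 3) and at 2.75, 2.23 and 1.53 CPM in WTCKD + RNLS (2.17 ± 0.613, n = 3). It stood at 3.41, 1.77 and 3.06 CPM in KOCKD (2.75 ± 0.864, n = 3) and at 1.30, 0.661 and 1.69 CPM in KOCKD + RNLS (1.22 ± 0.517, n = 3). The KOCKD + RNLS hearts were below all KOCKD hearts, and WTCKD overlapped WTCKD + RNLS by a narrow margin.

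Timp4, the inhibitor with the most heart-restricted expression of the family, had opposite signs of difference in the genotypes. Its level was 41.4, 41.6 and 36.5 CPM in WTCKD (39.8 ± 2.89, n = 3) and 76.3, 51.7 and 49.9 CPM in WTCKD + RNLS (59.3 ± 14.8, n = 3). It was 35.6, 75.3 and 53.4 CPM in KOCKD (54.8 ± 19.9, n = 3) and 41.3, 34.7 and 32.6 CPM in KOCKD + RNLS (36.2 ± 4.56, n = 3). The wild-type pair did not overlap, the knockout pair did, and WTSHAM spread over 69.2, 44.7 and 32.1 CPM. Timp2, which inhibits MMPs and also takes part in the activation of the Mmp2 product, ranged from 108 to 206 CPM. Its group means were 143 CPM in WTSHAM, 162 in WTCKD, 127 in WTCKD + RNLS, 125 in KOCKD and 126 in KOCKD + RNLS.

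WTCKD against WTSHAM compared wild-type hearts with and without kidney disease, where only the CKD mice have a control vector in their label. Sham and CKD hearts overlapped in level for all members but Adamts2. The share of all tested genes without overlap was not counted, so here and below a lack of overlap is only a description. No member passed: 0 of 10 had an adjusted p under 0.05 by edgeR's quasi-likelihood test, where 0.599% of all tested genes were called higher and 1.7% lower, and DESeq2 called 0 as well, with 211 genes higher and 373 lower over all genes. An unadjusted p under 0.05 was reached by 2 members, Timp1 and Adamts2, and by 2298 of the 13021 tested genes. The study set thresholds of a level more than 25% higher in either group than in the other and an unadjusted p under 0.05, on the p of its own tool. Applied here to edgeR's fold changes and p, these thresholds took the same 2 members, against 11.3% of all tested genes. They are used in the same way below, also for the average and the interaction, which were formed here. For Adamts2 the log2 fold change was -0.48 (SE 0.16) with an adjusted p of 0.111 in edgeR's quasi-likelihood test, and the groups did not overlap. For Timp1 it was -0.80 (SE 0.36) with an adjusted p of 0.257 in the edgeR test. Over the 10 members the median log2 fold change was -0.15, and over all tested genes -0.01. For Mmp14 the 95% interval of the log2 fold change ran from -0.38 to 0.27, so a change of the size seen with renalase lay outside it, while for Timp1 it ran from -1.56 to -0.04.

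WTCKD + RNLS against WTCKD compared wild-type CKD hearts with the renalase vector and with the control vector. In both genotypes the authors' library names are lower case for the control vector and upper case for the renalase vector. Whether these names mark batches is not known, and a batch that followed them could not be told apart from the vector. Timp3 rose and Mmp14 and Adamts2 fell: 1 of 10 members was called higher, where 2.19% of tested genes were, and 2 of 10 were called lower, where 2.28% were. Timp3 rose 1.62-fold, a log2 fold change of 0.69 (SE 0.14, adjusted p = 0.0112, edgeR's quasi-likelihood test), and was higher in 3 of 3 hearts. Mmp14 was 2.11-fold lower, a log2 fold change of -1.08 (SE 0.16, adjusted p = 0.00207, edgeR's quasi-likelihood test), in 3 of 3 hearts. Adamts2 was 1.53-fold lower, a log2 fold change of -0.62 (SE 0.16, adjusted p = 0.0381, edgeR's quasi-likelihood test), in 3 of 3 hearts. Groups that did not overlap were also seen for members that did not pass in the edgeR test: Adamts9 had a log2 fold change of -0.39 (adjusted p = 0.0919), Adamts5 of -0.48 (adjusted p = 0.15) and Timp4 of 0.57 (adjusted p = 0.231). Timp1 had a log2 fold change of -0.74 (adjusted p = 0.309, edgeR). The study's thresholds took 7 members, where it took 14.4% of all tested genes: it added Adamts5, Adamts9, Timp2 and Timp4. Adamts9 gained a call without WTCKD replicate 1 (adjusted p = 0.0357) and Adamts5 with gene length offsets (0.0485), both in edgeR. The median log2 fold change was -0.37 over the members and 0.01 over all tested genes.

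The calls of Timp3 and Mmp14 in the wild type held when any 1 of the 6 libraries was left out, with an adjusted p of at most 0.0499 for Timp3 and 0.0124 for Mmp14 over all alternatives with edgeR or DESeq2. For the log2 fold change of Adamts2, WTCKD + RNLS against WTCKD, the call was lost without WTCKD replicate 1 (-0.65, adjusted p = 0.0819), WTCKD replicate 2 (-0.45, 0.193), WTCKD + RNLS replicate 1 (-0.70, 0.0613), WTCKD + RNLS replicate 2 (-0.53, 0.0884) or WTCKD + RNLS replicate 3 (-0.65, 0.0846). It was also lost with only the 6 compared libraries in the edgeR fit (-0.62, 0.0797) and without the 2 libraries rich in atrial markers (-0.45, 0.209). Over all alternatives it ran from -0.74 to -0.45, with an adjusted p from 0.00896 to 0.209 in edgeR or DESeq2.

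KOCKD + RNLS against KOCKD made the same comparison in hearts that lack the mouse's own renalase. Timp3 rose and Mmp14 and Adamts9 fell: 1 of 10 members was called higher, where 9.05% of tested genes were, and 2 of 10 were called lower, where 7.05% were. Timp3 rose 1.90-fold, a log2 fold change of 0.92 (SE 0.14, adjusted p = 0.00161, edgeR's quasi-likelihood test), in 3 of 3 hearts. Mmp14 was 2.10-fold lower, a log2 fold change of -1.07 (SE 0.16, adjusted p = 0.00161, edgeR's quasi-likelihood test), in 3 of 3 hearts. Adamts9 was 1.53-fold lower, a log2 fold change of -0.61 (SE 0.13, adjusted p = 0.0061, edgeR's quasi-likelihood test), in 3 of 3 hearts. Timp1 did not overlap between the groups but did not pass in the edgeR test, with a log2 fold change of -1.19 (SE 0.43, adjusted p = 0.0694). Over the alternatives its adjusted p in edgeR or DESeq2 ran from 0.0377 to 0.242, with 0.0377 in DESeq2. Timp4 had a log2 fold change of -0.59 (adjusted p = 0.133, edgeR), and Adamts2 one of -0.24 (adjusted p = 0.341, edgeR). Leaving out 1 library, the value ran from -0.83 to -0.29 for Timp4 and from -0.40 to -0.11 for Adamts2. The study's thresholds took 5 members, where it took 22.3% of all tested genes: it added Timp1 and Timp4. Timp4 gained a call without KOCKD replicate 1 (adjusted p = 0.0476, edgeR), and Timp1 with DESeq2 and with only the compared libraries. The median log2 fold change was -0.22 over the members and -0.01 over all tested genes. The calls of Timp3, Mmp14 and Adamts9 held without any 1 of the 6 libraries. They also held with gene length offsets, with which 350 of all tested genes were called higher and 350 lower, against 1178 and 918 without them.

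Averaged over both genotypes, the renalase vector went with 5 calls among the 10 members. Timp3 was the 1 member called higher, where 10.7% of tested genes were, and 4 were called lower, where 7.35% were. With gene length offsets 904 of all tested genes were called higher and 844 lower, against 1390 and 957 without them. Timp3 rose by 0.81 on the log2 scale (SE 0.099, adjusted p = 1.4e-04, edgeR's quasi-likelihood test). Mmp14 had a log2 fold change of -1.08 (SE 0.11, adjusted p = 5.0e-05), Adamts9 of -0.50 (SE 0.089, adjusted p = 0.00158), Adamts2 of -0.43 (SE 0.11, adjusted p = 0.0176) and Timp1 of -0.96 (SE 0.29, adjusted p = 0.0305) in the same edgeR test. The study's thresholds took 6 members, where it took 16.7% of all tested genes: it added Adamts5, which had a log2 fold change of -0.34 (adjusted p = 0.0788, edgeR). Adamts5 gained a call in 3 alternatives: with DESeq2, with only the compared libraries and with gene length offsets (adjusted p down to 0.00774 in edgeR). The median log2 fold change was -0.30 over the members and -0.01 over all tested genes.

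For the log2 fold change of Timp1, RNLS averaged over both genotypes, the call was lost without WTCKD replicate 1 (-0.81, adjusted p = 0.0875), WTCKD + RNLS replicate 3 (-0.86, 0.0756), KOCKD replicate 1 (-0.87, 0.0718), KOCKD replicate 3 (-0.92, 0.06), KOCKD + RNLS replicate 1 (-0.99, 0.0527) or KOCKD + RNLS replicate 2 (-0.81, 0.0826) in edgeR. It was also lost with gene length offsets (-0.82, 0.07) and without the 2 libraries rich in atrial markers (-0.96, 0.075) in edgeR. For the log2 fold change of Adamts2, RNLS averaged over both genotypes, the call was lost without WTCKD replicate 2 (-0.34, 0.0516) and without the 2 libraries rich in atrial markers (-0.36, 0.0598) in edgeR. The calls of Timp3, Mmp14 and Adamts9 in the average held without any 1 of the 12 libraries.

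**Figure D2:**
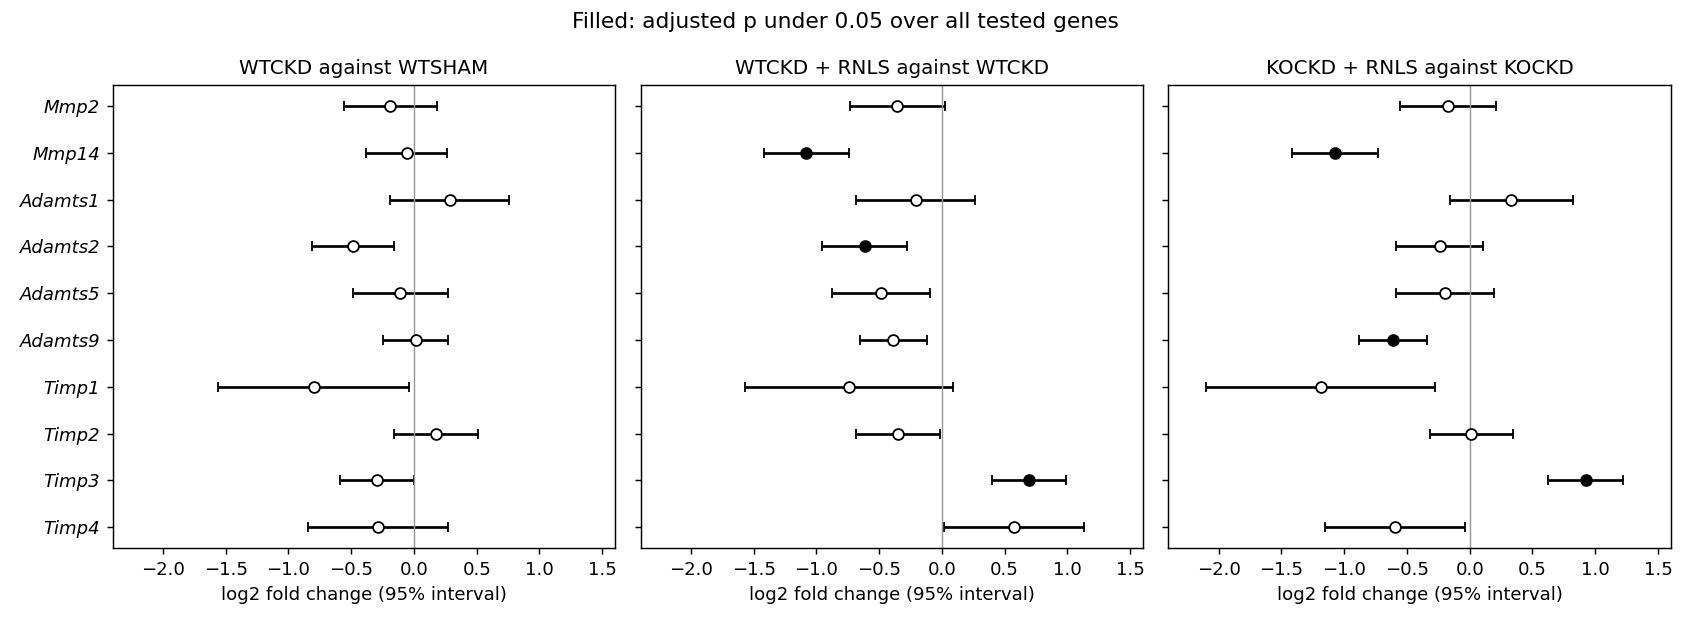
Log2 fold change of each member (horizontal axis) with its 95% interval in 3 comparisons, filled where the adjusted p was under 0.05 over all 13021 tested genes. Mmp14 at -1.08 and -1.07 and Timp3 at 0.69 and 0.92 are filled in both renalase comparisons, and no member is filled in WTCKD against WTSHAM.

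KOCKD against WTCKD compared knockout and wild-type hearts in CKD. By the paper's account the knockouts were made by a company and the wild types came from a research institute. Source and genotype therefore cannot be told apart. The fold change was negative for 9 of the 10 members, and the groups overlapped in level for all members but Adamts1, Adamts2 and Timp3. By edgeR's quasi-likelihood test 0 of 10 members were called, where 0.0% of all tested genes were called in either direction. An unadjusted p under 0.05 was reached by 4 members (Adamts1, Adamts2, Timp2 and Timp3) and by 1318 of the 13021 tested genes. DESeq2 called 1 member, Adamts1, and over all genes 3 higher and 6 lower. The study's thresholds took 3 members (Adamts1, Adamts2 and Timp2), where it took 5.61% of all tested genes. Adamts1 had a log2 fold change of -0.94 (SE 0.23, adjusted p = 0.441, edgeR's quasi-likelihood test) without overlap of the groups, and its adjusted p was 0.0382 in DESeq2. Adamts2 had a log2 fold change of -0.52 (SE 0.16, adjusted p = 0.444, edgeR) and Timp3 one of -0.31 (SE 0.14, adjusted p = 0.487, edgeR), also without overlap. Over the members the median log2 fold change was -0.31, and over all tested genes -0.0047.

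The difference of the renalase effect between knockout and wild type was tested as an interaction. By edgeR's quasi-likelihood test 0 of 10 members passed, where 0.0% of all tested genes passed in either direction, 1 member had an unadjusted p under 0.05, as had 2289 of the 13021 tested genes, and DESeq2 called 0 members, with 132 genes higher and 231 lower over all genes. The study's thresholds took the same member, Timp4, where it took 15.2% of all tested genes. For Timp4 the log2 fold change was 0.57 in the wild type and -0.59 in the knockout, a difference of -1.17 (SE 0.37, adjusted p = 0.157, edgeR). For Mmp14 the difference was 0.01 with a 95% interval from -0.48 to 0.50, and for Timp3 it was 0.23 with an interval from -0.19 to 0.65. Adamts2 and Adamts9, each called in 1 genotype, had differences of 0.38 (adjusted p = 0.413, edgeR) and -0.23 (adjusted p = 0.54, edgeR), so neither was shown to respond differently in the genotypes.

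The groups with renalase were also set against the sham hearts, a pair of comparisons chosen after the values were seen. In WTCKD + RNLS against WTSHAM, 3 of 10 members were called lower, where 4.81% of tested genes were, and 0 higher in edgeR, where 2.88% were. These were Mmp14 with a log2 fold change of -1.14 (adjusted p = 6.26e-04), Adamts2 of -1.10 (adjusted p = 6.89e-04) and Timp1 of -1.54 (adjusted p = 0.0213) in edgeR's quasi-likelihood test. In KOCKD + RNLS against WTSHAM, 5 of 10 were called lower, where 6.34% of tested genes were, and 0 higher in edgeR, where 4.78% were. These were Mmp14 at -1.44 (adjusted p = 1.55e-04), Adamts2 at -1.24 (adjusted p = 2.88e-04), Adamts9 at -0.78 (adjusted p = 0.00116), Timp1 at -2.38 (adjusted p = 0.0016, 5.19-fold lower) and Mmp2 at -0.64 (adjusted p = 0.0285) on the log2 scale in edgeR's quasi-likelihood test. Timp3 against sham had a log2 fold change of 0.40 (adjusted p = 0.0922, edgeR) in WTCKD + RNLS and of 0.32 (adjusted p = 0.153, edgeR) in KOCKD + RNLS. Leaving out 1 library, these values ran from 0.24 to 0.56 and from 0.17 to 0.48 in the same order. In each of these comparisons 7 members had an unadjusted p under 0.05, where 3126 and 3422 of the 13021 tested genes did. DESeq2 called 6 members in the first, 1 of them (Timp3) higher, with 615 genes higher and 749 lower over all genes, and 5 members in the second, with 734 higher and 927 lower.

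For the log2 fold change of Timp1, WTCKD + RNLS against WTSHAM, the call was lost without WTSHAM replicate 2 (-1.34, adjusted p = 0.0972), WTCKD + RNLS replicate 2 (-1.57, 0.057) or WTCKD + RNLS replicate 3 (-1.33, 0.0721) and with only the 6 compared libraries (-1.54, 0.063), all in edgeR. WTSHAM replicate 1 stood apart from the other WTSHAM libraries in the comparison of pairs given above. Leaving it out brought the count of called members there from 3 to 6, with Mmp2, Timp3 and Adamts5 added. For the log2 fold change of Mmp2, KOCKD + RNLS against WTSHAM, the call was lost without WTSHAM replicate 2 (-0.49, 0.136), WTSHAM replicate 3 (-0.65, 0.0604), KOCKD + RNLS replicate 2 (-0.57, 0.125) or KOCKD + RNLS replicate 3 (-0.57, 0.116) in edgeR. Leaving out WTSHAM replicate 1 brought the count of called members there from 5 to 7, with Timp3 (adjusted p = 0.0304) and Adamts5 (0.0181) added in edgeR, and with gene length offsets Adamts5 was called as well.

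Several of these comparisons share samples, so their values are set side by side and not counted as separate support. Adamts2 had log2 fold changes of -0.48 for WTCKD against WTSHAM, -0.62 for WTCKD + RNLS against WTCKD and -1.10 for WTCKD + RNLS against WTSHAM. Timp3 had -0.29, 0.69 and 0.40 in the same order. Mmp14 had -0.06, -1.08 and -1.14.

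The balance of inhibitor to protease transcripts among the members was described as the summed FPKM of the 4 TIMPs over that of the 6 proteases. No test was made of it. Proteases outside the members are not in the sum, so it does not cover all proteases of the heart. Among these, Mmp15 had a mean FPKM of 32.3 in WTSHAM, 40.8 in WTCKD and 33.8 in WTCKD + RNLS. It had 39.1 FPKM in KOCKD and 38.8 FPKM in KOCKD + RNLS, while Mmp2 had 22.7 FPKM over the 15 libraries. The ratio was 2.19, 2.0 and 1.90 in WTCKD and 3.62, 3.47 and 3.37 in WTCKD + RNLS. It was 2.03, 2.58 and 2.42 in KOCKD and 3.33, 3.78 and 3.93 in KOCKD + RNLS. The 6 hearts with the renalase vector were above the other 9, of which the WTSHAM hearts had ratios of 2.64, 2.08 and 1.82. The summed TIMP level was 128 ± 25.5 FPKM in WTCKD and 155 ± 25.8 FPKM in WTCKD + RNLS, and 108 ± 1.97 FPKM in KOCKD and 147 ± 2.84 FPKM in KOCKD + RNLS (n = 3 each). The summed protease level was 62.9 ± 12.2, 44.3 ± 6.79, 46.4 ± 5.04 and 40.2 ± 4.35 FPKM in these groups in the same order (n = 3 each). Timp3 made up 50.8% of the summed TIMP level in WTCKD, 64.1% in WTCKD + RNLS, 47.9% in KOCKD and 66.9% in KOCKD + RNLS, beside 54.9% in WTSHAM.

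**Figure D3:**
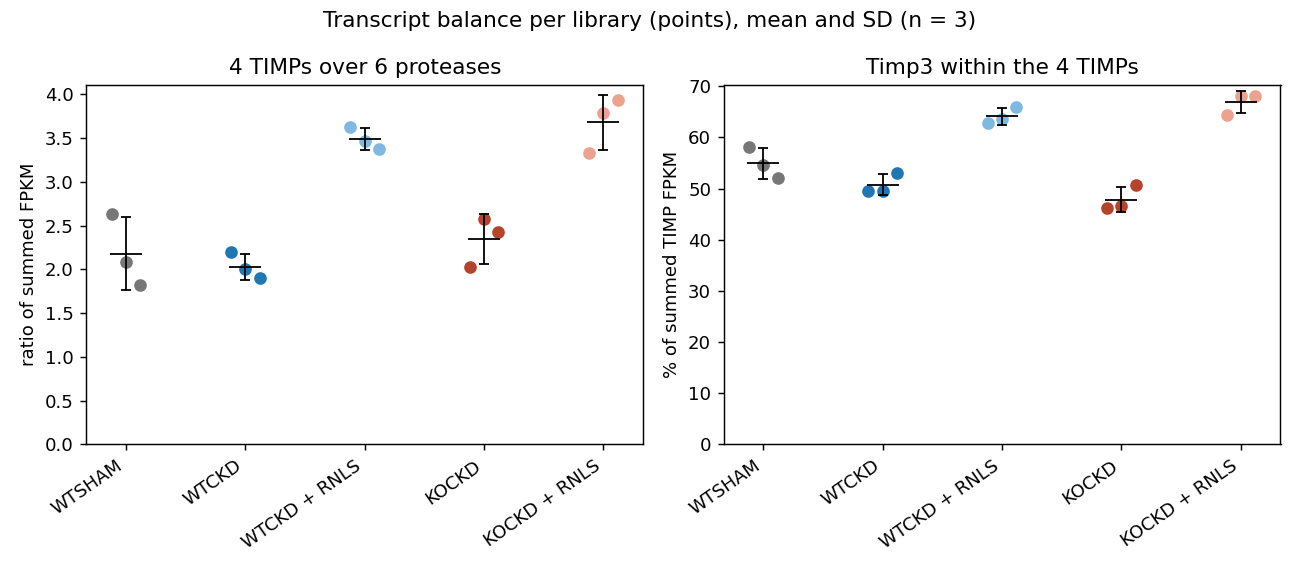
Left, the ratio of the summed FPKM of the 4 TIMPs to that of the 6 proteases, and right, the percentage of the summed TIMP FPKM held by Timp3, for each library (points) with mean and SD (n = 3). Ratios in the groups with renalase lie between 3.33 and 3.93, above all other hearts.

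Across the 15 libraries several proteases varied together. The Pearson correlation of log2 CPM was 0.905 between Mmp2 and Adamts2, 0.854 between Mmp14 and Adamts9, 0.837 between Mmp14 and Adamts2, and 0.821 between Mmp2 and Timp2. Adamts1 stood apart from the other 5 proteases, with -0.0252 to 0.321, and Adamts5 and Adamts9 had 0.519. Timp3 had negative values to 5 of the 6 proteases, from -0.634 to Mmp14 and -0.603 to Adamts9 through -0.410 to Adamts5 to -0.201 to Mmp2 and -0.196 to Adamts2, and a positive one to Adamts1 (0.433). Timp4 had the weakest ties, between -0.319 and 0.201 to the other members. These values describe libraries that also differ by group, and no test was made of them.

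For each member, the 3 genes with the most similar pattern were taken by the Pearson correlation of log2 CPM over the 15 libraries, among 11717 genes with an average log2 CPM over 1. Adamts2 was closest to Col1a2 (0.968), Col5a2 (0.957) and Lcp1 (0.950), Mmp14 to Loxl1 (0.962), Atf5 (0.953) and Col3a1 (0.951), and Adamts5 to Igsf10 (0.942), Daam2 (0.919) and Loxl2 (0.916). Mmp2 was closest to Csf1r (0.946), Fstl1 (0.941) and Pid1 (0.937), and Timp1 to Tmem176a (0.929), Ccl21a (0.928) and Spi1 (0.924). Timp3 was closest to Rbbp6 (0.935), Fry (0.933) and Ahctf1 (0.931), and Adamts9 to Leo1 (0.900), Tnfaip2 (0.897) and Tmem184b (0.896). The other 3 had weaker matches after the first: Timp4 with Dctn6 (0.935), Ehd1 (0.841) and Trmu (0.838), Timp2 with Ecm1 (0.875), Gpm6a (0.867) and Chst11 (0.862), and Adamts1 with Sumf1 (0.835), Sacm1l (0.828) and Slc25a25 (0.821).

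Other genes around these enzymes were read from lists, and their counts stand beside the shares of all tested genes: 2.19% called higher and 2.28% lower in the wild type, 9.05% and 7.05% in the knockout, and 10.7% and 7.35% in the average. Of 26 listed matrix genes that include substrates of these enzymes, 23 were tested: 0 were called higher and 9 lower in the wild type, 0 higher and 9 lower in the knockout, and 0 higher and 12 lower in the average of both (edgeR and an adjusted p under 0.05). Its median log2 fold change was -0.65, -0.36 and -0.43 in that order. Col3a1, a fibrillar collagen chain, was at 239, 302 and 240 CPM in WTCKD, 67.1, 77.7 and 92.4 CPM in WTCKD + RNLS, 248, 168 and 170 CPM in KOCKD and 80.6, 59.7 and 56.0 CPM in KOCKD + RNLS. No heart with the renalase vector reached a CKD heart with the control vector for Col3a1. It fell by 1.65 on the log2 scale in the average (SE 0.17, adjusted p = 4.79e-05, edgeR's quasi-likelihood test). The basement membrane collagen Col4a1 fell by 0.86 (SE 0.11, adjusted p = 1.73e-04) and the collagen-binding Sparc by 0.67 (SE 0.094, adjusted p = 2.81e-04) in the same edgeR test. The other genes called lower in the average were Col1a1, Col1a2, Col4a2, Col5a2, Eln, Fbn1, Nid2, Postn and Tnc. In the average 10 of these 12 calls held without any 1 of the 12 libraries. The call of Col1a2 was lost without WTCKD replicate 2, KOCKD replicate 1, KOCKD + RNLS replicate 2 or KOCKD + RNLS replicate 3 (adjusted p up to 0.0937 in edgeR), and that of Nid2 without WTCKD replicate 2 or KOCKD + RNLS replicate 2, and both were lost without the 2 libraries rich in atrial markers (0.0866 for Nid2). Within a genotype fewer calls held. In the wild type those of Col1a1, Col5a2, Fbn1 and Postn were lost without at least 1 library, and in the knockout those of all but Col3a1 and Col4a1, including Sparc in 4 of 6 cases. Against WTSHAM, 15 of the 23 were called lower in WTCKD + RNLS, where 4.81% of all tested genes were, and 16 in KOCKD + RNLS, where 6.34% were. Those not yet named are Bgn, Col5a1 and Vcan in both, Fbln2 in the first and Dcn and Fbln1 in the second.

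Among the other ADAMTS genes (11 of 15 tested), calls went in both directions. In the wild type 0 were called higher and 2 lower in edgeR, in the knockout 3 higher and 1 lower, and in the average 3 higher and 2 lower, with a median log2 fold change of -0.17, -0.20 and 0.01. Adamts4, an aggrecan-cleaving protease, was at 1.35, 2.94 and 2.04 CPM in WTCKD and at 0.25, 0 and 0.23 CPM in WTCKD + RNLS. It was at 1.66, 1.21 and 1.05 CPM in KOCKD and at 0.0812, 0 and 0 CPM in KOCKD + RNLS. Adamts4 was thus close to no counts in all 6 hearts with the renalase vector, and it was called lower in the average (adjusted p = 1.27e-04, edgeR's quasi-likelihood test). No fold is given for Adamts4, since at such counts a fitted value depends on the prior count. Adamts7 rose by 0.71 (SE 0.15, adjusted p = 0.00417) and Adamts3, a procollagen N-propeptidase like Adamts2, by 0.63 (SE 0.15, adjusted p = 0.00896) on the log2 scale in the average by the edgeR test. Adamts10 (higher) and Adamts12 (lower) were the other 2 genes called in the average. The call of Adamts12 there was lost without KOCKD + RNLS replicate 2, WTCKD + RNLS replicate 1, WTCKD replicate 2 or KOCKD replicate 3, and without the 2 libraries rich in atrial markers (adjusted p up to 0.119 in edgeR). In the knockout the calls of Adamts7 and Adamts10 were each lost in 5 of 6 cases when 1 library was left out and that of Adamts3 in 1, and in the wild type that of Adamts12 in 4.

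Of 21 other MMPs, 10 were tested: in edgeR 0 were called in the wild type and 0 in the knockout, and 2 were called lower in the average, Mmp9 with a log2 fold change of -1.35 (SE 0.42, adjusted p = 0.0339) and Mmp3 of -1.15 (SE 0.36, adjusted p = 0.0366). Both calls depended on which libraries were included: that of Mmp9 was lost without WTCKD replicate 1, WTCKD replicate 2, KOCKD replicate 1, KOCKD replicate 3, KOCKD + RNLS replicate 1 or KOCKD + RNLS replicate 2 (adjusted p up to 0.0999 in edgeR for the log2 fold change of Mmp9, RNLS averaged over both genotypes), and that of Mmp3 without WTCKD replicate 1, WTCKD replicate 2, KOCKD replicate 1, KOCKD replicate 3 or any 1 KOCKD + RNLS library (adjusted p up to 0.0908 in edgeR for the log2 fold change of Mmp3, RNLS averaged over both genotypes). With gene length offsets that of Mmp3 was lost as well (-1.05, 0.071, edgeR). Without the 2 libraries rich in atrial markers the log2 fold change was -1.25 for Mmp9 (adjusted p = 0.103) and -0.89 for Mmp3 (adjusted p = 0.14) in edgeR.

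Of the 6 ADAMTS-like genes, which encode related matrix proteins without the protease domain, all were tested. In the average 2 were called higher and 1 lower: Adamtsl4 rose by 0.56 (SE 0.087, adjusted p = 6.12e-04), Adamtsl3 rose by 0.97 (SE 0.16, adjusted p = 0.00101) and Adamtsl2 fell by 0.76 (SE 0.17, adjusted p = 0.00607) on the log2 scale in edgeR's quasi-likelihood test. All 3 calls held without any 1 of the 12 libraries, and the median of the list was 0.05. In the knockout Adamtsl3 and Adamtsl4 were called higher and Adamtsl2 lower. In the wild type Adamtsl4 alone was called, higher (adjusted p = 0.0488, edgeR's quasi-likelihood test). That call was lost in 5 of 6 cases when 1 library was left out. Of the 8 ADAM genes, membrane proteases that shed proteins from the cell surface, 0 were called higher in edgeR and 2 lower in the average. Adam15 fell by 0.46 (SE 0.075, adjusted p = 8.73e-04) and Adam19 by 1.36 (SE 0.23, adjusted p = 0.00109) on the log2 scale in the edgeR test, and the median of the list was -0.16. Of 5 genes of procollagen processing, 4 were tested and 1 was called in the average, the Tolloid-like protease Tll2, which rose by 2.03 (SE 0.36, adjusted p = 0.00137, edgeR) from 0.604 ± 0.435 CPM in WTCKD to 2.68 ± 0.928 CPM in WTCKD + RNLS, and from 0.954 ± 0.717 CPM in KOCKD to 3.79 ± 1.02 CPM in KOCKD + RNLS (n = 3 each). The median of that list was 0.19. When 1 library was left out, the call of Tll2 within a genotype was lost in 4 of 6 cases in the wild type and in 2 of 6 in the knockout. It held in the average, where the low levels of Tll2 leave the size of its fold uncertain.

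Genes that activate or restrain these proteases numbered 19, of which 15 were tested. In the wild type no gene was called in edgeR. In the knockout 1 was called higher (Spock2) and 2 lower (Serpine2 and Bsg, which encodes an inducer of MMPs), and each of these calls was lost without at least 3 of the 6 libraries in turn. In the average 1 was called higher and 3 lower. Plat, tissue plasminogen activator, fell by 0.45 (SE 0.099, adjusted p = 0.00571), and Serpine2, an inhibitor of serine proteases, fell by 0.52 (SE 0.11, adjusted p = 0.00584) on the log2 scale in edgeR's quasi-likelihood test. Spock2, a matrix proteoglycan, rose by 1.06 (SE 0.25, adjusted p = 0.00976, edgeR), and Pzp was the other gene called lower. The calls of Plat, Serpine2 and Spock2 held without any 1 of the 12 libraries, and that of Pzp was lost without KOCKD + RNLS replicate 3, WTCKD replicate 1 or either of KOCKD replicates 1 and 2 (adjusted p up to 0.0799 in edgeR). Over the list the median log2 fold change was -0.27.

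Of 7 cathepsins and cystatins, all tested, 0 were called in the wild type in edgeR, 4 lower in the knockout (Cst3, Ctsb, Ctsl and Ctss) and 3 lower in the average. In the knockout only the call of Cst3 held without any 1 library, and it was lost with gene length offsets (adjusted p = 0.651, edgeR). In the average Ctsl fell by 0.31 (SE 0.077, adjusted p = 0.013) and Cst3, which encodes the inhibitor cystatin C, fell by 0.22 (SE 0.056, adjusted p = 0.0137) on the log2 scale in edgeR's quasi-likelihood test. Ctss had a log2 fold change of -0.47 (SE 0.15, adjusted p = 0.0375, edgeR), a call that was lost without any 1 of WTCKD replicates 1 and 2, WTCKD + RNLS replicates 2 and 3, KOCKD replicates 1 and 2, and KOCKD + RNLS replicates 2 and 3 (adjusted p up to 0.104 in edgeR for the log2 fold change of Ctss, RNLS averaged over both genotypes). With gene length offsets it was -0.36 for Ctss (0.133), and for the log2 fold change of Cst3, RNLS averaged over both genotypes, it was -0.065 (0.344), so both calls were lost. Without the 2 libraries rich in atrial markers they were lost too, with an adjusted p of 0.0983 for Ctss and 0.0591 for Cst3 in edgeR. In the average the list had a median of -0.23. Of 7 proteases of mast cells and neutrophils, 4 were tested and 2 were called lower in the average, Cma1 and Tpsb2, both at 3.03 CPM or less in every heart, and the median of the list was -2.17. For the log2 fold change of Cma1, RNLS averaged over both genotypes (-2.26, adjusted p = 0.0175, edgeR), the call was lost without WTCKD replicate 2 (-1.89, 0.0607) and without the 2 libraries rich in atrial markers (-1.71, 0.111). The log2 fold change of Tpsb2, RNLS averaged over both genotypes (-2.41, 0.029), lost its call without any 1 of WTCKD replicate 2, WTCKD + RNLS replicates 1 and 3, KOCKD replicate 3 and KOCKD + RNLS replicate 2, with gene length offsets (-2.28, 0.051) and without the 2 libraries rich in atrial markers (-1.58, 0.198), all in edgeR.

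In WTCKD against WTSHAM no gene of these 9 lists passed in edgeR's test. Against WTSHAM, further genes called lower were Adam17 in both renalase groups, Cd44 and Thbs1 in both, Plau in WTCKD + RNLS, and Adamts15, Adamts19 and Pcolce in KOCKD + RNLS, where 4.81% of all tested genes were lower in WTCKD + RNLS and 6.34% in KOCKD + RNLS. Of the genes named above, Adamts4, Adamts12, Adamtsl2, Adam15, Adam19 and Ctss were lower against WTSHAM in both groups, Pzp in WTCKD + RNLS, and Mmp3, Plat, Serpine2, Cst3 and Ctsb in KOCKD + RNLS. Called higher against WTSHAM were Adamtsl4 in both groups and Tll2 in KOCKD + RNLS, where 2.88% and 4.78% of all tested genes were. In the 3 renalase comparisons the pathway and marker lists gave 104 calls, of which 53 held when any 1 compared library was left out and 51 were lost at least once. Without the 2 libraries rich in atrial markers, the calls of Col1a1, Col5a2, Fbn1, Postn, Tll2, Adam15, Adamts12, Abcc9, Upk3b and Hbb-bs in the wild type, of Ctsb, Ctss, Spock2 and C1qa in the knockout and of Ryr2 in the average were lost as well as those named above and below.

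Markers of several cell types were also called with the renalase vector, and in bulk tissue fewer cells of a type and less RNA per cell cannot be told apart. The 6 endothelial markers, led by Kdr, summed to 1298, 1226 and 1414 CPM in WTCKD and to 966, 897 and 938 CPM in WTCKD + RNLS. They summed to 1212, 1316 and 1126 CPM in KOCKD, to 1056, 1033 and 1050 CPM in KOCKD + RNLS, and to 1084, 1319 and 1205 CPM in WTSHAM. The renalase groups were below their CKD partners in both genotypes, and 4 endothelial markers were called lower in the wild type, 1 in the knockout and 5 in the average. In the wild type the call of Emcn was lost without WTCKD replicate 2 and without the 2 libraries rich in atrial markers, and that of Kdr without WTCKD + RNLS replicate 1. The call in the knockout, Pecam1, was lost without any 1 library but KOCKD replicate 3 (adjusted p up to 0.193 in edgeR), and that of Egfl7 in the average was lost in 6 of 12 cases, with gene length offsets (0.205) and without the 2 libraries rich in atrial markers. The 6 fibroblast markers, led by Gsn, summed to 2628 ± 666 CPM in WTCKD, 2071 ± 384 CPM in WTCKD + RNLS, 2024 ± 341 CPM in KOCKD and 2130 ± 122 CPM in KOCKD + RNLS, beside 3002 ± 463 CPM in WTSHAM (n = 3 each). Among them Dpt was the 1 gene called in the renalase comparisons, lower in the wild type, where the call was lost without any 1 library but WTCKD replicate 3 and without the 2 libraries rich in atrial markers (adjusted p up to 0.18 in edgeR), and in the average, where it held without any 1 library. The 6 macrophage markers, led by C1qa, summed to 195 ± 27.7, 144 ± 12.5, 153 ± 17.2 and 124 ± 21.0 CPM in the same order, beside 256 ± 27.9 CPM in WTSHAM (n = 3 each), and Adgre1 and C1qa were called lower in the average and C1qa in the knockout, where the call was lost in 5 of 6 cases when 1 library was left out. With gene length offsets both calls of C1qa were lost, with an adjusted p of 0.0566 in the average and 0.412 in the knockout in edgeR. Against WTSHAM, 5 of the 6 macrophage markers were called lower in WTCKD + RNLS, where 4.81% of all tested genes were, and 6 of 6 in KOCKD + RNLS, where 6.34% were. In the same order 3 endothelial markers (Emcn, Kdr and Pecam1) and 1 (Pecam1), and 1 fibroblast marker (Dpt) and 2 (Dcn and Dpt), were called lower against WTSHAM. Fcgr1 was the 1 marker called in WTCKD against WTSHAM, where it was lower. None of these endothelial, fibroblast and macrophage markers was at 0 in any library. A sum is weighted to its most abundant gene, so list medians of the log2 fold change are given for the wild type, the knockout and the average. They were -0.52, -0.25 and -0.35 for the endothelial list and -0.34, -0.037 and -0.20 for the fibroblast list. For the macrophage list they were -0.41, -0.32 and -0.33. The part of these 3 lists in the results for the members was not tested.

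The 7 cardiomyocyte markers summed to 96139 ± 6509 CPM in WTCKD, 109914 ± 4018 CPM in WTCKD + RNLS, 90939 ± 2316 CPM in KOCKD and 102230 ± 2283 CPM in KOCKD + RNLS (n = 3 each), and Myh6 and Ryr2 were called higher in the knockout and in the average. The calls of Myh6 held without any 1 library, and those of Ryr2 were lost in 3 of 6 cases in the knockout and in 8 of 12 in the average. With gene length offsets the log2 fold change of Ryr2 turned, from 0.34 to -0.023 in the knockout and from 0.19 to -0.042 in the average. Against WTSHAM, Pln, Tnni3 and Tnnt2 were called higher in WTCKD + RNLS and no cardiomyocyte marker in KOCKD + RNLS in edgeR. The list had a median log2 fold change of 0.22 in the wild type, -0.046 in the knockout and 0.093 in the average, so the higher sum in the knockout was not shared by most of its genes. The 7 markers of pericytes and smooth muscle gave 1 call in each renalase comparison, Abcc9, called higher, which was lost in 4 of 6 cases in the wild type and held in the others. Abcc9 was also called higher in KOCKD + RNLS against WTSHAM. Their median log2 fold change was -0.016 in the wild type, -0.034 in the knockout and -0.066 in the average, and they summed to 1603 ± 241, 1708 ± 141, 1634 ± 105 and 1811 ± 108 CPM in the same order. The 5 atrial markers summed to 1254, 2330 and 84.7 CPM in WTCKD, 123, 121 and 474 CPM in WTCKD + RNLS, 440, 116 and 2647 CPM in KOCKD, 151, 286 and 128 CPM in KOCKD + RNLS, and 148, 428 and 1146 CPM in WTSHAM. Between 0 and 2 of the atrial markers were at 0 in a library, and Myl4, Myl7 and Sln were called lower in the knockout and in the average. Without the 2 libraries rich in these markers all of these calls were lost, with an adjusted p in the average of 0.0935 for Myl4 and 0.116 for Sln in edgeR. Without KOCKD replicate 3 alone all but that of Myl4 in the average were lost. Among 4 epicardial markers Upk3b was called lower in the wild type, and among 5 erythrocyte markers Hbb-bs was called higher there, but the call of Upk3b was lost in 5 of 6 cases when 1 library was left out (adjusted p up to 0.208 over all alternatives with edgeR or DESeq2) and that of Hbb-bs in 6 of 6 (up to 0.176). The erythrocyte markers summed to 38.0 to 624 CPM, the epicardial ones to 3.56 to 19.6 CPM and the 4 adipocyte markers to 0 to 27.0 CPM. Markers of neutrophils (3 genes) and of T and B cells (5 genes) had group means of 2.43 to 6.98 CPM and of 1.94 to 3.78 CPM, and none of them was called in edgeR. The part of these markers in the results for the members was not tested either.

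Promoters of the members were read for short motifs. Of the 10 members, 8 matched an entry of the RefSeq promoter table for the build GRCm38.p6 (250 bases before to 50 bases after the gene's start), and Mmp2 and Adamts5 were not among them. Both strands were searched for 4 motifs: the GC box GGGCGG, the TATA motif TATAAA, the AP-1 motif TGANTCA and the E-box CACGTG. The GC box was in 7 of the 8 promoters, against 35.7% of 32851 promoters in the table. This motif holds only G and C, and all 8 promoters were above the median GC content. They had 53.3% (Timp4) to 77.3% (Adamts2), beside a median of 52.7% over all promoters, and no GC-matched share was computed. TATAAA was in 1, that of Adamts1 from -32 to -27, against 13.6%. TGANTCA was in 0 of the 8, against 7.81%, and CACGTG in 0, against 7.15%. A match describes letters in a window of 300 bases and no more.

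The promoters of Mmp14, Timp3 and Adamts9, the 3 members called in the knockout with renalase, are shown because the first 2 moved in opposite directions and the last moved with Mmp14. They lie at chr14:54431348-54431647 on the plus strand (Mmp14), chr10:86300162-86300461 on the plus strand (Timp3) and chr6:92943485-92943784 on the minus strand (Adamts9), and are written 5′ to 3′ along the gene with motif matches in capitals. All capitals here are GC boxes: GGGCGG on the gene's strand in Mmp14, from -19 to -14 and from -13 to -8, and its reverse complement CCGCCC in Timp3, from -15 to -10 and from 14 to 19, and in Adamts9, from -7 to -2. GC content was 56.0% in Mmp14, 67.0% in Timp3 and 70.0% in Adamts9, beside a median of 52.7% over all promoters.
Mmp14: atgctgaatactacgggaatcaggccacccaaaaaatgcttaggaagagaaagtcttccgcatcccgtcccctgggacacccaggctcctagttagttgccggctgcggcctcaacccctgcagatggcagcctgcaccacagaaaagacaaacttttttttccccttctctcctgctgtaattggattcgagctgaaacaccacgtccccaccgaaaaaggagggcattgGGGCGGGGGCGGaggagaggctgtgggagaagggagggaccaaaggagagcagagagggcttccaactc
Timp3: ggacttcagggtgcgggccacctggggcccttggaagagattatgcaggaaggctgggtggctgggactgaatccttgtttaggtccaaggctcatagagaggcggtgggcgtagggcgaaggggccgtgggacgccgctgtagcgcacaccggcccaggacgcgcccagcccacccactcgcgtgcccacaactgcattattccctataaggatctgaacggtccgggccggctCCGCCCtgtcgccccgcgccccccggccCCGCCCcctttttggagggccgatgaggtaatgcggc
Adamts9: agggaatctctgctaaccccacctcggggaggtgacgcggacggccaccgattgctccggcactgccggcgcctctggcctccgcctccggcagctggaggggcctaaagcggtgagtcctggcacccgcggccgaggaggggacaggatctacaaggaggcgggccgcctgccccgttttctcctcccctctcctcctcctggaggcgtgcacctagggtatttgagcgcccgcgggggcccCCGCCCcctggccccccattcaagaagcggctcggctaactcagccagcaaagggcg

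Neighbouring genes on the opposite strand bear on what a count can hold, since the strand option of the counting was not stated. In the GENCODE annotation of the mm9 assembly, used here for names and neighbours only, Timp3 shares 1733 of its 8144 exon bases with Syn3, which had 2 to 21 counts in a library against 2587 or more for Timp3. Adamts9 shares 1381 and 424 of 12527 exon bases with the transcripts A730049H05Rik and Gm15737, which were not analysed here. Timp1 overlaps the locus of Syn1, which had 0 to 13 counts, and Timp4 that of Syn2, which had 16 to 74 counts, with 0 shared exon bases in both pairs.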

How the data were processed

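The authors trimmed reads with Trimmomatic, mapped them with hisat2 and counted them per gene with htseq-count; these raw counts, as deposited by the authors, were used for every test. The FPKM values deposited by the authors, scaled to gene length and library size and made with cufflinks by their account, served only to order levels between genes and for the inhibitor to protease ratio. Versions, annotation and strand option of these steps were not found in the sources used here. The paper names alternative sequencer models and read lengths and does not say which library had which. The study's supplement names the build mm9 and the sample records list GRCm39, so no coordinates are given for counted genes, and promoters are those of a separate RefSeq table.

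Counts of all 15 libraries (10480788 to 13424078 reads each) were fitted in R 4.3.3 with edgeR 4.0.16: TMM scaling, the filter on low counts by group (minimum count 10, total 15), a quasi-likelihood fit with group as the only term, and Benjamini-Hochberg adjustment over 13021 genes. A call is an adjusted p under 0.05. The study's thresholds, set for its own tool, were applied to edgeR's values. The common biological coefficient of variation was 0.132, and counting error alone understates the spread between mice. DESeq2 1.42.0 was a second tool; Python 3.11.15 drew the figures. All tests are two-sided.

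The comparisons were WTCKD against WTSHAM, each renalase group against its CKD group, their average and difference, KOCKD against WTCKD, and any difference among the 5 groups. The 2 comparisons of renalase groups with WTSHAM, and the alternative without libraries over 2000 CPM of atrial markers, were chosen after the values were seen. Other alternatives were RLE size factors, no filter beyond 1 count, gene length offsets, a replicate block, only the libraries compared, and leaving out each library. Named genes are the 10 members, the called genes of 9 pathway lists (in full for the 3 with the smallest p) and, per member, the 3 genes with the highest correlation. The 13 marker lists are described as sums, with list medians for some of them. Single markers are also named for some of their calls. The members and lists were chosen with earlier results of these data known.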

Additional observations from a re-analysis of the deposited data

How the results depend on the processing

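Over 1140 alternative values of the members' fold changes, 1059 kept their direction and their side of the threshold, 25 calls were lost, 20 were gained, and 36 values of members that were not called changed sign, none by more than 0.17 from 0. No called member changed sign. Across RLE size factors, gene length offsets, DESeq2 and the replicate block, the median of all genes moved by at most 0.01. For these changes the cause was not tested. The replicate block, for which replicate numbers show no pairing, gave 5 members with any difference among the groups, all but Adamts1 of the 6, and left the member count of every other comparison unchanged. Timp1 had the lowest counts of the members, 8 to 105 in a library.

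The count of called members was 2 in WTCKD against WTSHAM, 7 in WTCKD + RNLS against WTCKD, 5 in KOCKD + RNLS against KOCKD, 3 in KOCKD against WTCKD and 1 in the interaction by the study's thresholds on edgeR's fold change and unadjusted p. By DESeq2 it was 1 in KOCKD against WTCKD and 6 in WTCKD + RNLS against WTSHAM, where it ran from 2 to 6 when 1 library was left out. Without the libraries rich in atrial markers it was 3 in the average. Over all genes, KOCKD + RNLS against KOCKD gave 350 calls higher and 350 lower with gene length offsets, against 1178 and 918, and the interaction gave 132 and 231 with DESeq2, against 0 and 0 with edgeR, where 2289 genes had an unadjusted p under 0.05.

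Values whose sign changed, as log2 fold changes, were as follows. Without the libraries rich in atrial markers, Timp2 was -0.037 in WTCKD against WTSHAM and -0.050 in KOCKD + RNLS against KOCKD, Adamts1 was 0.010 in WTCKD + RNLS against WTCKD, and in the interaction Mmp2 was -0.10 and Mmp14 was -0.14. With gene length offsets, Timp4 was 0.023 in the average, Mmp14 was -0.024 in the interaction, and the cardiomyocyte marker Ryr2 was -0.023 in KOCKD + RNLS against KOCKD (0.34 as reported) and -0.042 in the average (0.19). Leaving out 1 library, values for WTCKD against WTSHAM ran from -0.15 to 0.043 for Mmp14, -0.042 to 0.35 for Timp2, -0.52 to 0.053 for Timp4, -0.29 to 0.015 for Adamts5 and -0.17 to 0.15 for Adamts9. They ran from -0.36 to 0.013 for Adamts1 in WTCKD + RNLS against WTCKD and from -0.054 to 0.14 for Timp2 in KOCKD + RNLS against KOCKD. In the average they ran from -0.13 to 0.14 for Timp4 and from -0.012 to 0.19 for Adamts1. In the interaction they ran from -0.089 to 0.20 for Mmp14. Against WTSHAM, Adamts1 ran from -0.11 to 0.42 in WTCKD + RNLS and from -0.50 to 0.021 in KOCKD + RNLS.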
